A study of Mus musculus with 12 samples.

Results

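Transcripts of 9 transcription factors that mark glial identity were measured in microglia and astrocytes sorted from mouse brain. The 5 factors of microglia were Spi1, Sall1, Irf8, Mef2c and Runx1, and the 4 factors of astrocytes were Sox9, Nfia, Lhx2 and Hes5. They were taken by gene symbol from the 40853 symbols of the count tables, and all 9 were found in both. Mice 8 to 9 weeks old carried the labels WT or KPNA4 KO, the latter for the gene of importin α4, a nuclear import receptor. All of the animals, WT included, had received lipopolysaccharide (LPS, a bacterial component that triggers inflammation) at 1 mg/kg into the peritoneum, 20 h before the brain was taken. Both cell types were sorted by flow cytometry from each of 6 animals, 3 of each genotype, so that each combination of cell type and genotype has 3 libraries (4 groups, 12 libraries). The comparison of genotypes asked which glial genes differ after LPS when importin α4 is missing. Mice without LPS were not analysed here, and neither the part of Kpna4 that was deleted nor the surface proteins used for the sort are given in the sources used here.

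Cell identity in the brain is held by small sets of transcription factors that keep the genes of a cell type on. In microglia, PU.1 (the protein of Spi1), IRF8, RUNX1 and MEF2C bind the enhancers of myeloid and microglial genes, while SALL1 separates microglia from other macrophages. In astrocytes, SOX9 and NFIA start the glial program in neural progenitors, LHX2 is a factor of cortical progenitors that persists in astrocytes, and HES5 is a repressor switched on by Notch signalling.

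The sequence before the start site was searched for motifs of pathways known to act on these genes, and the windows of Hes5 and Irf8 are printed because each holds a pair of matches to a motif that few promoters hold. Of the 9 factors, 7 were in the RefSeq table of mouse promoters (build GRCm38.p6), with 14 start sites in all, and the 250 bases before each start were searched on both strands. Hes5 is shown because its window holds 2 matches to the RBPJ motif GTGGGAA, the motif through which Notch acts, in capitals, on the plus strand of chr4:154960673-154960922. The matches lie 226 to 220 bases before the start, read on the other strand, and 83 to 77 bases before it. Irf8 is shown because the window of its first start site, on the plus strand of chr8:120736108-120736357, holds 2 matches to TTCNNNGAA, the site of STAT factors downstream of interferon, in capitals, 171 to 163 and 153 to 145 bases before the start.
Hes5: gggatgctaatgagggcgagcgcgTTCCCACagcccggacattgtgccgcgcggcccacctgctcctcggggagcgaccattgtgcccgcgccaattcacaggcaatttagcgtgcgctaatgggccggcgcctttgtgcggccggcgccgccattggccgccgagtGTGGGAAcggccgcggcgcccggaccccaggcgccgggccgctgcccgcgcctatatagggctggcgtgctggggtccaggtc
Irf8: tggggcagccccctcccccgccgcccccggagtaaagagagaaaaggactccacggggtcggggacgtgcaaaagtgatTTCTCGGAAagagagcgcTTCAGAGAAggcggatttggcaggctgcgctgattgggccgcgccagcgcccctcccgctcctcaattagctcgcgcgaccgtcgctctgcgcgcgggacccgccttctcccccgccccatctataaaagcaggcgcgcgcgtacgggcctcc
Of 32851 mouse promoter windows of the same length, 5.42% held GTGGGAA and 7.02% held TTCNNNGAA at least once, and 0.161% and 0.317% held them 2 or more times. Mef2c had 1 match to TTCNNNGAA, at its first start site. The core of the PU.1 motif, GAGGAA, was in 23.3% of windows, and among the factors it lay at 2 of 3 start sites of Mef2c, 1 of 2 of Runx1 and 1 of 2 of Lhx2, where it occurred 2 times, as in 3.54% of windows. The NFI motif, TGGC and GCCA with any 5 bases between them, was in 0.703% of windows and matched none of the factors' windows. A match is a description of these letters and not a measured binding site.

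The libraries held 10.3 M to 14.5 M counts in microglia (M for 1000000) and 10.7 M to 15.6 M in astrocytes. Kpna4 itself was at 59.8 to 96.4 CPM (counts scaled to a library total of 1000000) in microglia and 40.1 to 80.2 CPM in astrocytes, with overlapping genotypes in each, so the transcript does not separate them and KO below means libraries so labelled. Among lists of cell type markers, the sum of 10 microglia markers was 15805 to 20946 CPM in microglia and 171 to 634 CPM in astrocytes. The sum of 10 astrocyte markers was 15550 to 20902 CPM in astrocytes and 333 to 719 CPM in microglia. The astrocyte libraries also held markers of oligodendrocytes (854 to 3990 CPM), choroid plexus (491 to 1097 CPM), pericytes (301 to 399 CPM), ependymal cells (249 to 610 CPM) and neurons (76.9 to 147 CPM). The microglia libraries held markers of choroid plexus (355 to 2201 CPM), oligodendrocytes (276 to 1731 CPM) and border macrophages (170 to 373 CPM). The part of these cells in the values below was not tested. In sorted bulk RNA, fewer cells of a type and less RNA per cell cannot be told apart.

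Spi1, the gene of PU.1, on which microglia depend for their development, was at 193, 129 and 220 CPM in microglia WT and at 177, 205 and 256 CPM in microglia KO. In astrocytes it was at 5.83, 2.36 and 7.11 CPM in WT and 3.74, 1.95 and 3.403 CPM in KO. Every microglia library stood above every astrocyte library, and the genotypes overlapped within each cell type. The log2 fold change of astrocytes over microglia was -5.38 (SE 0.27, adjusted p = 5.26e-10, edgeR's quasi-likelihood test, 6 against 6 libraries), a lower level in astrocytes.

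Irf8, a partner of PU.1 that keeps microglia responsive to inflammation, was at 257, 188 and 295 CPM in microglia WT and at 234, 286 and 376 CPM in microglia KO. Its astrocyte values were 8.71, 2.03 and 3.83 CPM in WT and 8.59, 3.82 and 7.51 CPM in KO. The microglia libraries were again all higher, with WT replicate 2 lowest and KO replicate 3 highest, as for Spi1. The log2 fold change of astrocytes over microglia was -5.32 (SE 0.32, edgeR adjusted p = 2.93e-09).

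Runx1, a factor of blood cell and microglia precursors, had the smallest spread between microglia libraries of the 5 microglia factors. It was at 376, 386 and 391 CPM in microglia WT and 359, 420 and 425 CPM in microglia KO, which is 393 ± 25.5 CPM over the 6 libraries (SD, n = 6). In astrocytes it was at 10.9, 4.55 and 7.11 CPM in WT and 4.51, 4.65 and 7.38 CPM in KO. Its log2 fold change was -5.65 (SE 0.23, edgeR adjusted p = 1.06e-10), and it had the lowest astrocyte-to-microglia ratio among the 9 factors.

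Mef2c, which restrains the inflammatory response of microglia and is also active in neurons and endothelium, was at 1187, 1827 and 1187 CPM in microglia WT and 1776, 1423 and 1109 CPM in microglia KO. In astrocytes WT it was at 93.2, 26.4 and 27.5 CPM, so that replicate 1 stood more than 3 times above the other replicates. That library also had the highest sum of microglia markers of all astrocyte libraries (634 CPM, against 171 and 364 CPM in WT replicates 2 and 3) and the highest sum of endothelial markers (103 CPM). In astrocytes KO, Mef2c was at 52.4, 50.6 and 28.9 CPM. The cell types did not overlap, and the log2 fold change was -4.63 (SE 0.35, edgeR adjusted p = 3.05e-08).

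Sall1, the factor that sets microglia apart from other macrophages, was at 899, 757 and 848 CPM in microglia WT and 789, 781 and 1109.9 CPM in microglia KO. In astrocytes it was at 75.5, 71.1 and 113 CPM in WT and 77.8, 71.2 and 72.6 CPM in KO. Per length of exon it had the highest astrocyte level of the 5 microglia factors (15.2 ± 3.06 CPM per kb, against 6.36 ± 3.52 for Mef2c, SD, n = 6), and its log2 fold change was the smallest of the 5, -3.16 (SE 0.17, edgeR adjusted p = 1.15e-09). Its astrocyte values rest on 765 to 1647 counts per library.

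Sox9, which opens the glial program, was at 343, 346 and 521 CPM in astrocytes WT and 329, 282 and 486 CPM in astrocytes KO. In microglia WT it was at 9.88, 8.70 and 19.7 CPM and in microglia KO at 2.33, 7.78 and 7.64 CPM, from 24 to 259 counts per library. The 3 KO values in microglia lay below the 3 WT values, and the astrocyte values of the genotypes overlapped. The log2 fold change between the cell types was 5.73 (SE 0.32, edgeR adjusted p = 1.54e-09).

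Nfia, a nuclear factor I protein that acts with SOX9, was at 219, 247 and 243 CPM in astrocytes WT and 238, 177 and 233 CPM in astrocytes KO. In microglia it was at 94.1, 128 and 89.9 CPM in WT and 109, 99.4 and 110.1 CPM in KO. The cell types did not overlap, but the gap was small: the log2 fold change was 1.39 (SE 0.13, edgeR adjusted p = 3.14e-07), against 4.81 or more for the other 3 astrocyte factors.

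Lhx2, a LIM homeodomain factor, was at 45.6, 39.9 and 41.0 CPM in astrocytes WT and 46.2, 41.0 and 53.2 CPM in astrocytes KO. Microglia held 3.02, 0.987 and 3.50 CPM in WT and 2.71, 1.00 and 0.758 CPM in KO. Those are 11 to 46 counts per library, so single microglia values carry a large counting error. The log2 fold change was 4.81 (SE 0.36, edgeR adjusted p = 2.46e-08).

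Hes5, the Notch effector whose promoter is printed above, was at 54.5, 44.1 and 36.2 CPM in astrocytes WT and 33.5, 43.6 and 28.5 CPM in astrocytes KO. The 6 microglia libraries held 21 Hes5 counts together, 14 of them in KO replicate 2, and WT replicate 2 and KO replicates 1 and 3 held 0, which allows up to 0.269, 0.291 and 0.207 CPM at 3 counts per library, for counting error only. The log2 fold change was 7.47 (SE 0.68, edgeR adjusted p = 2.02e-07). It was 9.78 without the animal of KO replicate 2, so the size of the fold depends on that animal.

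**Figure D1:**
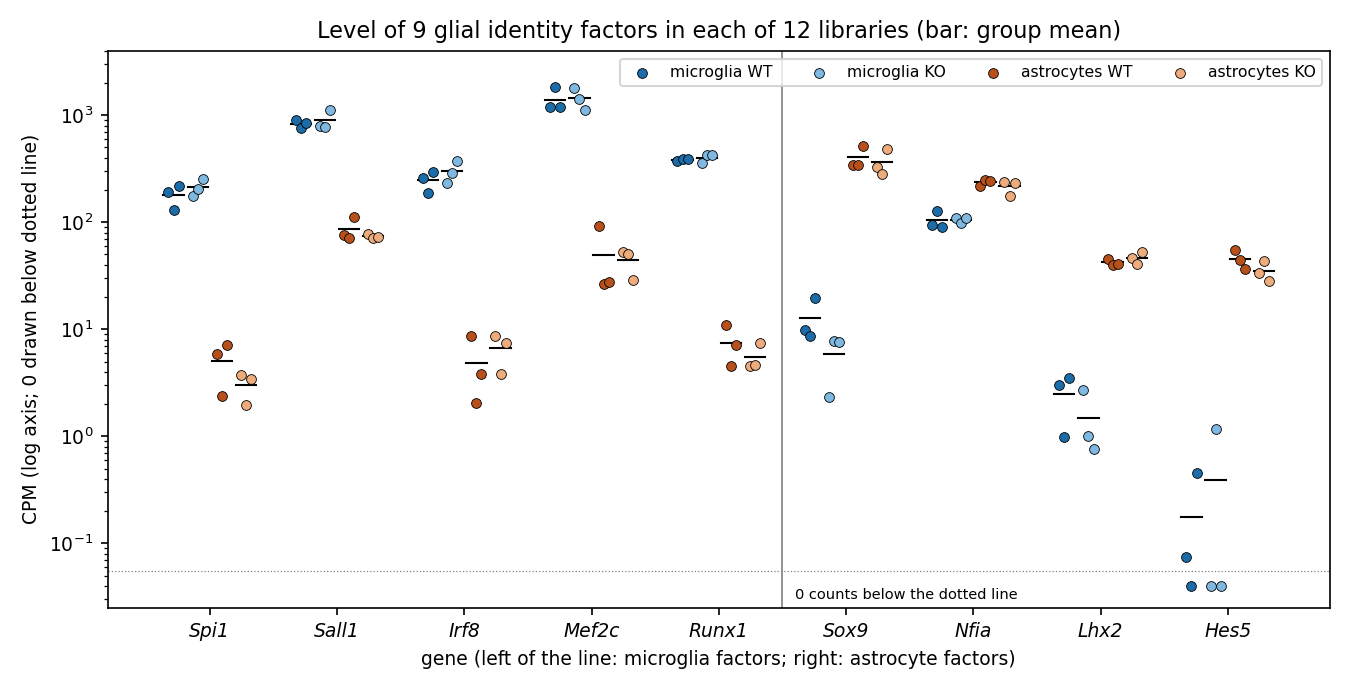
Level of each factor in each of the 12 libraries, in CPM on a log axis, with 1 point per library, colours for the 4 groups and a bar at each group mean. The microglia and astrocyte points of each gene do not overlap, the WT and KO points of each cell type overlap except for Sox9 in microglia, and Nfia has the narrowest gap between cell types.

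All 9 factors thus passed the test between cell types in the direction of their known identity, with edgeR adjusted p-values from 1.06e-10 to 3.14e-07. The same rule called 64.6% of the 17294 genes tested, 36.4% higher in astrocytes and 28.2% higher in microglia, so passing it sets a gene little apart in these data. With a fold of at least 8 beside the adjusted p, all 5 microglia factors and 3 of the 4 astrocyte factors passed, while 7.64% of genes were so called toward microglia and 20.5% toward astrocytes. Nfia was the factor that did not reach 8-fold. The libraries of the cell types did not overlap for any of the 9 (exact permutation p = 0.00216, 2-sided, the smallest that 6 against 6 libraries can give). The same held for 46.5% of all genes (24.9% higher in microglia and 21.7% higher in astrocytes). Hes5 passed the filter on low counts only through the astrocyte libraries, where it is high. It had to differ, so its calls and its lack of overlap add nothing to any of these counts. Beside all genes, whose median log2 fold change was 0.19, the median was -5.32 for the 5 microglia factors.

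Levels of different genes were compared per length, as CPM per kb of exon. In microglia, Mef2c (194 ± 43.2 CPM per kb) and Sall1 (164 ± 24.9) led, and the gap between them was within the spread of the libraries. Spi1 (96.7 ± 20.9) and Irf8 (79.4 ± 18.5) followed, and Runx1 was at 52.7 ± 3.42 (SD, n = 6 for each). Spi1 and Irf8 moved together over the same libraries (Pearson's r of log2 CPM 0.98). The spread between libraries therefore does not tell whether the levels of Spi1 and Irf8 differ. In astrocytes Sox9 was at 93.0 ± 23.1 CPM per kb, well above Hes5 at 31.5 ± 7.26, Nfia at 23.7 ± 2.74 and Lhx2 at 13.2 ± 1.49. Sall1 in astrocytes, at 15.2 ± 3.06 CPM per kb, was within the spread of the Lhx2 level there. Nfia in microglia was at 11.02 ± 1.45 CPM per kb.

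Each animal gave both cell types, so the level of a factor in the other cell type was expressed as a percentage of its level in the home library of the same animal, beside the same percentage of the summed markers. The microglia markers reached 1.08% to 3.89% (median 1.80%) in astrocytes. Spi1 had a median of 1.97%, Irf8 of 1.67% and Runx1 of 1.497%, and they exceeded the summed markers in 2, 3 and 1 of the 6 animals. The exact paired permutation test did not separate these 3 factors from the markers (p = 0.969, p = 0.969 and p = 0.156). Sall1 differed, at 6.54% to 13.3% (median 9.26%), above the summed markers in 6 of 6 animals and a median of 4.76 times their percentage (exact paired permutation p = 0.0313, the smallest that 6 animals allow, 0.0938 after Benjamini-Hochberg adjustment over the 9 factors). From the mean levels, Sall1 was at 9.28%, above each of the 10 single microglia markers, which ranged from 1.54% for Fcrls to 3.34% for Aif1. Such a level was not particular to Sall1 among transcription factors. The log2 fold change of Sall1, -3.16, lay beside -2.24 for Sall3 and a median of -3.53 for 16 other microglia or myeloid factors. Mef2c was above the summed markers in 6 of 6 animals as well, with the same exact p, but by a median of 1.41 times, and its 3.28% from the mean levels lay within the range of the single markers.

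In the other direction, astrocyte markers reached 1.75% to 3.65% (median 2.22%) of their home level in microglia. Sox9, at a median of 2.64%, and Lhx2, at 4.17%, exceeded them in 4 and 5 of 6 animals (exact paired permutation p = 1 and p = 0.125). Hes5 was below the markers in 5 of 6 animals, with a median of 0.0692% (exact paired permutation p = 0.0625). Nfia stood apart from the other 3, at 36.9% to 56.2% (median 46.5%) and a median of 24.3 times the marker percentage, above it in 6 of 6 animals (exact paired permutation p = 0.0313, adjusted 0.0938). Single astrocyte markers ranged from 1.03% for Gja1 to 4.03% for Slc1a3. The percentages of Sall1 and Nfia moved with the scaling, to 11.9% and 38.6% on TMM library sizes and to 11.6% and 38.3% without 8 abundant non-coding RNAs, which took 11.8% to 15.4% of microglia counts and 26.2% to 39.5% of astrocyte counts. The number of times by which they exceed the markers is free of the scaling.

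**Figure D2:**
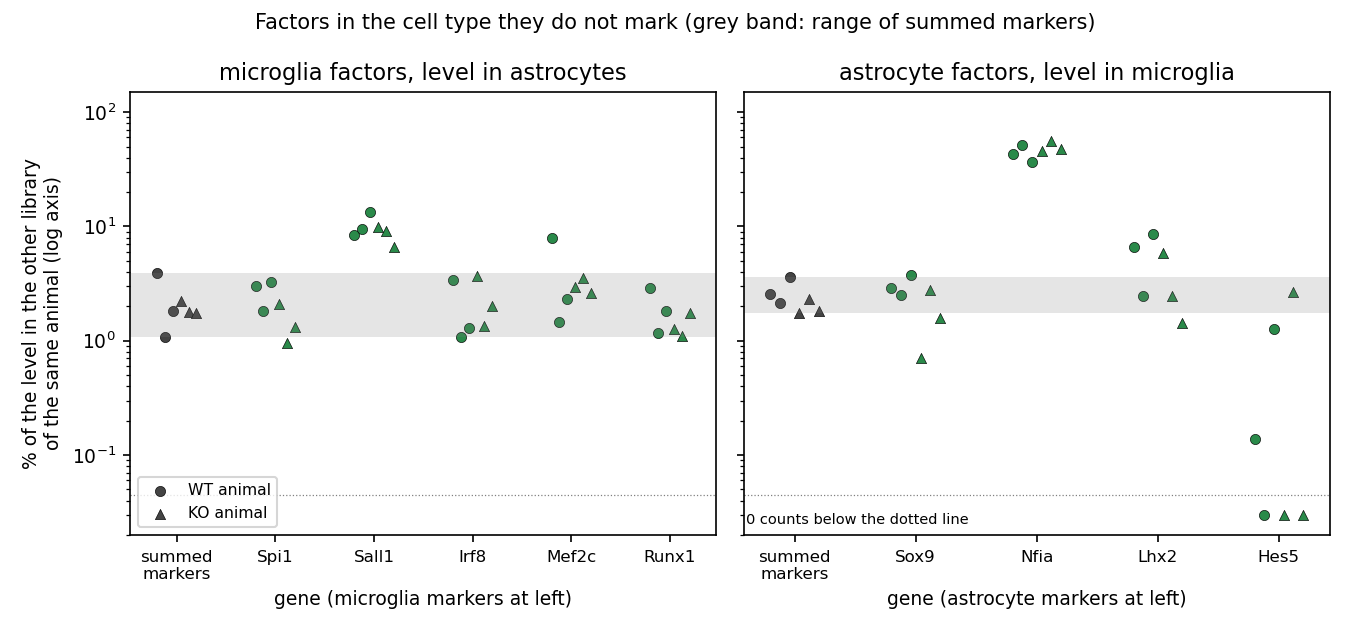
Level of each factor in the cell type it does not mark, as a percentage of its level in the other library of the same animal (log axis), with 1 point per animal, circles for WT and triangles for KO. The grey band is the range of the summed markers; Sall1 at 6.54% to 13.3% and Nfia at 36.9% to 56.2% lie above it in all 6 animals.

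None of the 9 factors passed the test between genotypes. Of the 8 tested in microglia (Hes5 had too few counts), 0 were called with edgeR, where 0% of 14191 genes were called, and 1, Sox9, had an unadjusted p under 0.05, as had 7.42% of genes. In astrocytes 0 of 9 were called, with 0% of 15755 genes called, and 0 had an unadjusted p under 0.05 against 2.37% of genes. WT and KO astrocyte libraries overlapped for 9 of 9, where 8.13% of genes did not overlap. Over all alternatives run, the number of factors called stayed at 0 in both cell types.

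In microglia the 5 microglia factors had log2 fold changes of KO over WT from 0.01 to 0.25, each smaller than or close to its SE. Irf8 was at 0.25 (95% interval -0.23 to 0.73) and Spi1 at 0.21 (-0.27 to 0.69). Sall1 was at 0.07 (-0.35 to 0.49), Runx1 at 0.04 (-0.34 to 0.42) and Mef2c at 0.01 (-0.49 to 0.52). The intervals leave room for changes of up to 0.73 on the log2 scale, so small differences were not detectable with 3 libraries per group. In astrocytes Lhx2 was at 0.26 (-0.21 to 0.74), Hes5 at -0.21 (-0.86 to 0.45), Nfia at -0.03 (-0.42 to 0.37) and Sox9 at -0.02 (-0.51 to 0.46). The microglia factors, with 21 to 151 counts per astrocyte library for Spi1, Irf8 and Runx1, had wider intervals there, such as -2.18 to 0.91 for Spi1 around -0.64.

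Sox9 in microglia was the factor with the smallest p between genotypes, at -1.12 on the log2 scale (SE 0.49, 95% interval -2.17 to -0.06, unadjusted p = 0.0392, edgeR adjusted p = 0.644). With a replicate left out, Sox9 ran from -1.35 (without KO replicate 2) to -0.68 (without WT replicate 3), so its size depends on single libraries. Its KO libraries all lay below its WT libraries, as 6.57% of genes did, with 13.1% not overlapping in either direction (exact permutation p = 0.1, the smallest that 3 against 3 allows). The summed astrocyte markers were at 532, 333 and 719 CPM in microglia WT and at 355, 388 and 361 CPM in microglia KO, so the genotypes overlapped there, and WT replicate 3 was highest in both Sox9 and the markers. Choroid plexus markers in the same libraries were at 880, 1105 and 2201 CPM in WT and 355, 547 and 894 CPM in KO, where KO replicate 3 stood above WT replicate 1. Ependymal markers were low but did not overlap, at 5.81, 9.51 and 10.3 CPM in WT and 3.10, 5.27 and 4.48 CPM in KO. Pericyte markers were at 9.78 to 27.7 CPM in WT and 4.26 to 11.5 CPM in KO, and endothelial markers at 30.2 to 69.2 and 25.1 to 31.6 CPM, with overlap for both. Oligodendrocyte markers also overlapped, at 276 to 1731 CPM in WT and 314 to 775 CPM in KO. So did border macrophage markers, at 170 to 373 CPM in WT and 226 to 356 CPM in KO. The part of these cell types in the Sox9 value was not tested. As a percentage of the astrocyte library of the same animal, Sox9 in microglia was at 2.88%, 2.52% and 3.78% in WT animals and 0.706%, 2.76% and 1.57% in KO animals.

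The difference of the genotype effects between the cell types was tested as an interaction over all 12 libraries, in which the WT and KO libraries of both comparisons enter. Of the 9 factors 0 were called, with 0% of 17294 genes called and 6.37% at an unadjusted p under 0.05. Sox9 had the smallest p, with an effect in astrocytes 1.18 above that in microglia on the log2 scale (SE 0.54, unadjusted p = 0.0465, edgeR adjusted p = 0.774). Lhx2 was at 1.20 (SE 0.64, edgeR adjusted p = 0.847) and Spi1 at -0.75 (SE 0.47, edgeR adjusted p = 0.885).

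**Figure D3:**
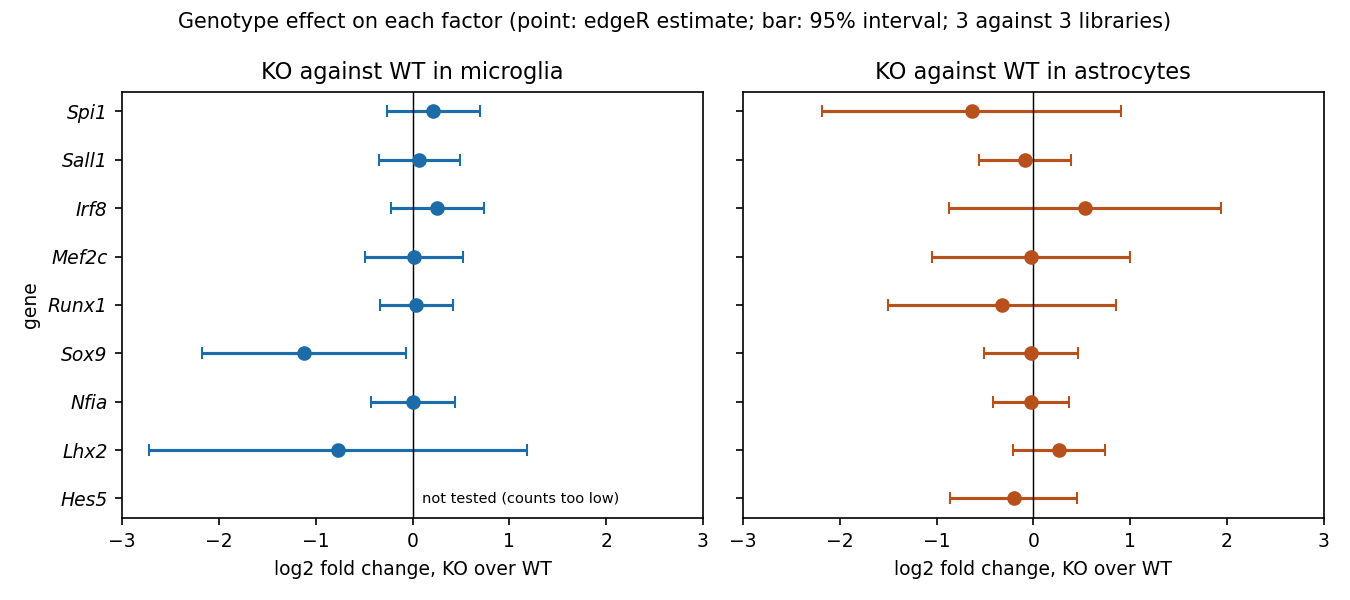
Log2 fold change of KO over WT for each factor in microglia (left) and astrocytes (right), with points for the edgeR estimate and bars for the 95% interval, 3 against 3 libraries. The intervals of the factors include 0 except that of Sox9 in microglia, -2.17 to -0.06, which did not pass the adjusted threshold.

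Within microglia, Spi1 and Irf8 followed each other from library to library, in both genotypes, while Mef2c ran opposite to them. Relations among the factors of a cell type and with the library total, 25 in all, were computed over the 6 libraries of the home cell type. They used log2 CPM, with 2 counts added to each value, and the log2 of the library total. The libraries stood in the same order for Spi1 and Irf8, from WT replicate 2 (129 and 188 CPM) to KO replicate 3 (256 and 376 CPM). Pearson's r was 0.98 (exact permutation p = 0.00139, adjusted 0.0347) and Spearman's rho 1 (exact permutation p = 0.00278, adjusted 0.0694), and r was 0.98 without the 2 libraries farthest from the median of Spi1. With the group means removed, so within genotype, r was 0.98.

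For Mef2c the order was turned. Its highest library, WT replicate 2 at 1827 CPM, was the lowest for Spi1 and Irf8, and its lowest, KO replicate 3 at 1109 CPM, was the highest for Spi1, Irf8 and Sall1. With Spi1, r was -0.85 (exact permutation p = 0.0139, adjusted 0.0868) and rho -0.83 (exact permutation p = 0.0583, adjusted 0.208), with r = -0.74 without the 2 farthest libraries and -0.97 within genotype. With the library total, r was -0.955 (exact permutation p = 0.00417, adjusted 0.0521) and rho -0.94 (exact permutation p = 0.0167, adjusted 0.139), and r was -0.956 without the 2 farthest and within genotype. Spi1, Irf8 and Sall1 had r of 0.74, 0.79 and 0.85 with the library total, and Runx1 one of 0.62 that was -0.31 without the 2 farthest libraries. None of the 5 relations with the total had an adjusted p under 0.05, and the part of depth in the relations among the factors was not tested. In astrocytes no pair of factors had an adjusted p under 0.05, and Sox9 had r = 0.89 with the library total (exact permutation p = 0.0139, adjusted 0.0868) and rho = 0.89 (exact permutation p = 0.0333, adjusted 0.208), with r = 0.82 without the 2 farthest libraries.

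**Figure D4:**
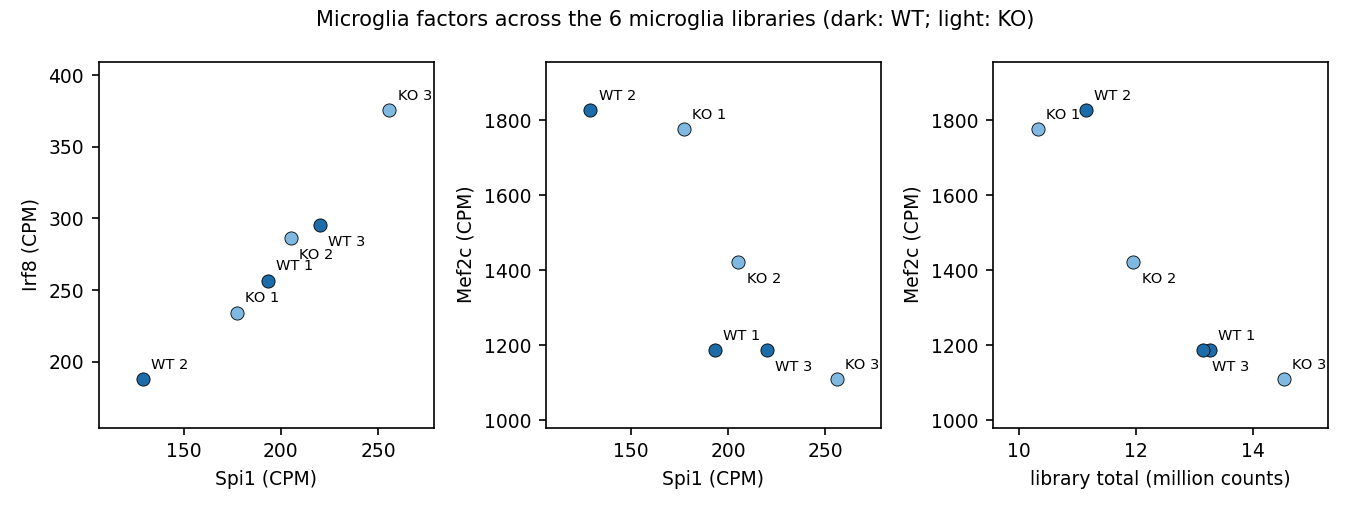
Irf8 against Spi1 (left), Mef2c against Spi1 (middle) and Mef2c against the library total in M counts (right), levels in CPM, with 1 point for each of the 6 microglia libraries, dark for WT and light for KO. Irf8 climbs with Spi1 (r = 0.98), Mef2c declines with Spi1 (r = -0.85) and with the total (r = -0.955), and both genotypes lie along the same course. The axes are linear, while each r was computed on log2 values.

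The genes whose profile was most like that of a factor were ranked by Pearson's r of log2 CPM over the 6 home libraries, as a description. Over 8356 genes in microglia they were Actg1 (0.998), Nme1 (0.995) and Cotl1 (0.989) for Spi1, and Cotl1 (0.997), Gpr84 (0.996) and Spsb1 (0.994) for Irf8. For Mef2c they were Arid4b (0.993), Ndufb7 (0.990) and Kcnq1ot1 (0.988), for Sall1 Rpa1 (0.994), Bicd2 (0.986) and Vps37b (0.983), and for Runx1 Ado (0.990), Mea1 (0.988) and Dr1 (0.982). Over 9048 genes in astrocytes they were Apcdd1 (0.998), Tuba1a (0.995) and Kmt2e (0.993) for Sox9, and, among the first for Nfia, Rgs4 (0.998) and Duxbl1 (0.997, one of several near-identical copies whose counts are uncertain). Lhx2 was most like Acat2 (0.995), Nudt19 (0.972) and Cct5 (0.966), and Hes5 most like Tceal9 (0.982), Trir (0.977) and Guk1 (0.975). With 6 points many genes reach such values: 137 genes had r over 0.9 with Spi1 and 958 with Nfia.

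Each factor belongs to a family of related proteins, and 36 paralogues or partners were examined, of which 18 reached a mean of 5 CPM in either cell type. Of 22 tested, 6 were called higher in astrocytes, 11 higher in microglia and 5 were not called. Of all genes, 64.6% were called, 36.4% higher in astrocytes and 28.2% higher in microglia. All 7 tested relatives of Irf8 among the interferon regulatory factors were called higher in microglia, beside those 28.2%. Irf4 passed the filter on low counts only through microglia, so its call adds nothing to these counts. Irf5, an activator of inflammatory cytokines, was at 241 ± 39.4 CPM in microglia and 5.69 ± 2.46 CPM in astrocytes (log2 fold change -5.12, SE 0.36, edgeR adjusted p = 1.17e-08). Irf1 was at -2.52 on the same scale, Irf7 at -1.39, Irf2 at -1.35, Irf3 at -1.25 and Irf9 at -0.997. The MEF2 factors Mef2a (-2.97) and Mef2d (-1.41) also shared the direction of Mef2c, and so did Cbfb (-1.23), the partner of RUNX1.

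Other families were split. Sall3 was higher in microglia, as Sall1 was, at -2.24 (SE 0.22), whereas Sall2 was higher in astrocytes, at 2.71 (SE 0.17, edgeR adjusted p = 4.11e-09). In the nuclear factor I family, Nfib was at 208 ± 37.7 CPM in astrocytes and 11.1 ± 4.07 CPM in microglia, 4.50 apart on the log2 scale (SE 0.26), and Nfix was at 1.78 (SE 0.18). Nfic, at 108 ± 20.0 and 128 ± 27.8 CPM, differed by 0.01 on that scale (SE 0.16, edgeR adjusted p = 0.975). Nfia at 1.39 therefore sat nearer to Nfix than to Nfib. The SOXE factors Sox8 (5.43) and Sox10 (3.54), the latter a factor of oligodendrocytes, were higher in astrocyte libraries, as Sox9 was. Hes1 was higher in astrocytes (2.06, SE 0.39, edgeR adjusted p = 0.000315), at 11.3 ± 3.95 CPM against 3.93 ± 2.46 CPM in microglia, and Hes6 was at -0.09 (edgeR adjusted p = 0.875). Between genotypes 0 of 21 tested paralogues were called in microglia and 0 of 19 in astrocytes, where 0% of all genes were called in either cell type.

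**Figure D5:**
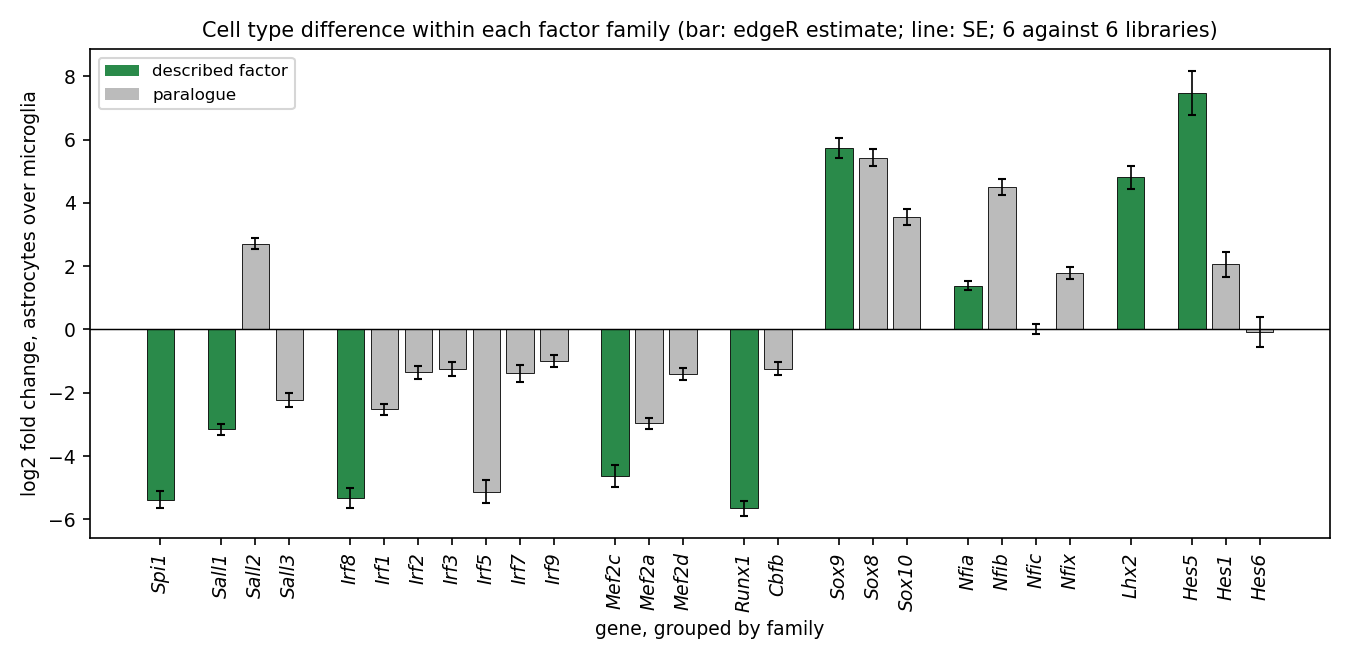
Log2 fold change of astrocytes over microglia for each factor (green) and its paralogues that reached 5 CPM (grey), grouped by family, with bars for the edgeR estimate and lines for the SE, 6 against 6 libraries. The interferon regulatory and MEF2 families lie below 0 throughout, while the SALL family has members on both sides and Nfic sits at 0.01.

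Other factors known from these cells were set beside the 9. Of 16 other microglia or myeloid factors, 15 were called higher in microglia (median log2 fold change -3.53), as were 28.2% of all genes. Among the largest gaps were those of the lymphoid and myeloid factor Ikzf1 (-5.71), Tal1 (-5.26) and Fli1 (-4.86), close to those of Spi1, Irf8 and Runx1. Tal1 and Fli1 had only 0 to 34 and 1 to 165 counts per astrocyte library. Over the alternatives their values ran from -6.72 to -5.08 and from -5.58 to -4.68, so the size of these folds is uncertain. Bhlhe40 was called in the other direction, at 71.2 ± 14.6 CPM in astrocytes and 3.30 ± 1.63 CPM in microglia (log2 fold change 4.71, SE 0.30, edgeR adjusted p = 5.23e-09). Of 24 other astrocyte or radial glia factors, 24 were called higher in astrocytes, as were 36.4% of all genes. Of these 24, 7 had too few counts for a test within microglia and entered through the astrocyte libraries, where they are high, so that they had to differ and the count supports nothing. They include Rfx4, Gli1 and Dbx2, which had fitted log2 fold changes of 7.27, 7.01 and 6.92 but only 0 to 17, 0 to 13 and 0 to 16 counts per microglia library, so the size of those folds is uncertain. Rorb, with 6 to 92 counts there, was at 6.52.

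The Notch pathway, which drives Hes5, was not on one side. Of 16 tested genes of 18, 6 were called higher in astrocytes and 9 higher in microglia, beside 36.4% and 28.2% of all genes. The receptor Notch3 (4.78), the feedback inhibitor Nrarp (4.18) and the ligand Jag1 (3.82) were higher in astrocytes, on the side of Hes5. The ligand Dll1 (3.44) had too few counts for a test within microglia, 0 to 17 per library. It entered through the astrocyte libraries, with 15 to 140 counts each, so its call adds nothing to that count. Rbpj, the DNA-binding protein of the pathway, was higher in microglia, at 630 ± 132 CPM against 69.4 ± 13.2 CPM, where Hes5 had 21 counts in all. Between genotypes 0 of these genes were called, as were 0% of all genes, and Notch1 in microglia had the smallest p (log2 fold change -0.52, SE 0.22, edgeR adjusted p = 0.628).

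Genes that the factors are known to support were on the side of their factors, 12 of 12 for microglia genes such as Selplg (-5.86), P2ry13 (-5.79), Fcrls (-5.77) and Tmem119 (-5.72), and 12 of 12 for astrocyte genes such as Aqp4 (6.90), Gja1 (6.89), Fgfr3 (6.69) and Atp1b2 (6.60). Between genotypes 0 of the 12 were called for either list in either cell type with edgeR, as were 0% of all genes. In microglia libraries 11 of the 12 astrocyte genes had values below 0 and 5 an unadjusted p under 0.05, beside 50.1% and 7.42% of all genes. Gfap was at -1.36 (edgeR adjusted p = 0.551), Aldh1l1 at -1.12, Slc1a2 at -0.76 and Atp1b2 at -0.65, on the side of the Sox9 value of -1.12. The other astrocyte factors were likewise below 0 in 14 of 17 tested, with Zic1 at -1.43, Id4 at -1.24 and Rorb at -2.20 (edgeR adjusted p from 0.542 to 0.638). The marker sums given beside Sox9 belong to the same libraries, and their part in these values was not tested. Gfap, Aldh1l1, Slc1a2, Slc1a3, Aqp4, Gja1, Fgfr3 and Aldoc are also members of the astrocyte marker sum. That sum and the values of these genes are therefore not separate observations. In astrocyte libraries the 12 astrocyte genes had a median of 0.18, and 0 had an unadjusted p under 0.05. Among microglia genes in microglia, Csf1r had the smallest p, at -0.52 (SE 0.19, edgeR adjusted p = 0.600).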

How the data were processed

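The authors deposited estimated counts, 1 table per cell type with gene symbols in rows; per the submitters' processing notes, STAR 2.7.10b, RSEM 1.3.3, limma and the build GRCm39 were used. Cells were sorted from whole brain, RNA was column-purified, and cDNA was made with SMART-Seq HT and Nextera kits, per the labels' protocols. This chemistry uses no molecular identifiers and marks no strand, so counts hold amplified copies, and antisense transcripts at a locus cannot be told apart from the gene. Totals were 10.3 M to 15.6 M counts (M for 1000000) per library, and intervals cover the spread between libraries.

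Counts were rounded to whole numbers. CPM used the library total; lengths are the exon union of GENCODE genes on GRCm38, since no GRCm39 annotation was used here. Genes were tested by the quasi-likelihood method of edgeR (version 4.0.16, R 4.3.3) with TMM factors, filterByExpr (minimum count 10) and Benjamini-Hochberg adjustment over all genes tested, called at an adjusted p under 0.05. Genotypes were fitted within each cell type (6 libraries). Cell types and the interaction were fitted over 12 libraries with 4 group means. The SE is the log2 fold change divided by the square root of F. Single values were compared with 2-sided exact permutation tests. The fit was tested on simulated data.

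Animal numbers in the labels tie the microglia to the astrocyte library of a mouse. Across genes, what the libraries deviated from their group means correlated within a mouse at 0.038, 0.186 and 0.223 in WT and 0.134, -0.023 and 0.211 in KO animals. Library pairs of a group differed by more than sampling noise (chi-square per degree of freedom 32.0 to 127). The animals of a group are separate, so the spread is that between animals.

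All 9 factors are named, paralogues from a mean of 5 CPM, and from each other list up to 4 genes with the smallest p between genotypes, up to 4 with the largest fold between cell types, and any called against its list. Genes most alike were the first 3 by r among tested genes with a mean of at least 10 CPM. A few genes that these rules pick are not reported here. The factors and lists were chosen with earlier results of these data known. Alternatives were DESeq2 1.42.0, its size factors in edgeR, limma voom (limma 3.58.1) with quality weights, no filter beyond 1 count, a minimum count of 50, no abundant non-coding RNAs, a block for the replicate number or animal, each replicate or animal left out, an 8-fold minimum and other scalings of CPM.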

Additional observations from a re-analysis of the deposited data

How the results depend on the processing

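The 9 factors kept their direction and their side of the threshold between cell types under every alternative run, and the count of 9 fell to 8 with the 8-fold minimum. Their log2 fold changes moved least for Nfia (1.16 to 1.43) and most for Hes5 (7.002 to 9.78). Over all genes the median log2 fold change between cell types was 0.19, and -0.05 to 0.23 with an animal left out, and 56.3% of calls were higher in astrocytes. With the animal as a block, all 9 factors passed as before, where Hes5 again adds nothing to the count.

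Between genotypes the count of all genes called depended on the tool, while 0 factors were called throughout. In microglia it rose from 0 to 121 with no filter beyond 1 count, 41 with DESeq2 and 30 with the replicate number as a block, and was 0 to 2 with a replicate left out (2 without KO replicate 2). In astrocytes it was 17 with no filter, 4 with DESeq2 and 0 to 1 with a replicate left out (1 without WT replicate 1). For the difference of the genotype effects it was 160 with no filter, 54 with DESeq2 and 0 to 6 with an animal left out (1 without that of WT replicate 2, 6 without that of KO replicate 3). The cause was not tested. The replicate numbers are not stated to pair WT with KO animals: same-numbered microglia libraries correlated at 0.086, 0.067 and 0.350 and astrocyte libraries at -0.017, 0.068 and 0.445, and 4 of 6 and 2 of 6 libraries correlated best with their own number.

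Several values between genotypes changed sign, none of them called. In microglia, Mef2c was at -0.0195 with a minimum count of 50, -0.0063 with voom and -0.16 to 0.26 with a replicate left out; Nfia was at -0.0012 with DESeq2 size factors, -0.0323 with a minimum count of 50, -0.0010 with DESeq2, -0.0108 with voom and -0.10 to 0.18 with a replicate left out; Sall1 was at -0.0927 to 0.166. In astrocytes, Mef2c was at 0.0011 with DESeq2, 0.17 with the replicate block and -0.33 to 0.85 with a replicate left out (0.85 without WT replicate 1), and Nfia at 0.0059 with voom and -0.0740 to 0.0494. With a replicate left out, Sall1 there was at -0.198 to 0.0856, Runx1 at -0.561 to 0.0547 and Sox9 at -0.22 to 0.14. For the difference of effects, Mef2c was at -0.0028 (size factors), -0.11 (no filter), -0.0012 (DESeq2), -0.10 (no abundant non-coding RNAs) and -0.66 to 0.99 with an animal left out, and Nfia at -0.0031, -0.0854, -0.0033, -0.0838 and -0.236 to 0.124. With an animal left out, Sall1 was at -0.38 to 0.11, Irf8 at -0.0832 to 1.03, Runx1 at -0.688 to 0.0656 and Hes5 at -3.20 to 3.76. Of the genes that the factors support, Slc2a5 in astrocytes was at -2.32 to 0.0710, Tmem119 at -1.08 to 0.0064 and Olfml3 at -0.445 to 0.110, with the sign turning without WT replicate 1, and Gfap in microglia passed (adjusted p = 0.0154, edgeR, no filter). With 3 libraries per group, depth limits what Lhx2 and Hes5 can show in microglia.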
